A study of Homo sapiens with 9 samples.

Results

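NRF2, the product of NFE2L2, and the glutathione and thioredoxin genes around it were followed in MDA-MB-231 cells, an established line from a human breast tumour that lacks estrogen and progesterone receptors. The 9 genes were chosen by symbol: NFE2L2, KEAP1, GCLC, GCLM, GSR, TXN, TXNRD1, HMOX1 and GGT5 (older name GGTLA1). They are 9 of 11963 genes with a probe set of 1 symbol, and are read by 11 of the 22215 probe sets tested, with 2 probe sets each for GCLC and TXN. The lines were made by stable lentiviral transduction, with the vector pLKO named for the Coco hairpins, and were grown in DMEM with 10% fetal bovine serum, and 1 Affymetrix 3′ expression array was hybridized for each of 3 biological replicates per line. The shco4 line carried Coco hairpin #4 (TRCN0000148148), the shco2 line carried Coco hairpin #2 (TRCN0000149666), and the scramble line carried a lentiviral control hairpin. All 3 lines thus carry a hairpin, and untransduced cells are not analysed here. The labels do not say whether a line is 1 clone or a pool, or whether replicates came from separate transductions, so p-values measure only the spread between these samples. Coco, encoded by DAND5, is a secreted antagonist of BMP, Nodal and activin ligands.

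NRF2 is a transcription factor that KEAP1 holds for degradation in unstressed cells. When KEAP1 is modified by oxidants or electrophiles, NRF2 accumulates, pairs with small MAF proteins and binds antioxidant response elements in genes for glutathione synthesis, thioredoxin reduction, NADPH supply and detoxification. Glutathione is made by the glutamate-cysteine ligase of GCLC and GCLM followed by glutathione synthetase, is kept reduced by GSR, and is cleaved outside the cell by gamma-glutamyltransferases such as GGT5.

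An antioxidant response element has the core TGACNNNGC. The windows printed are those of TXNRD1 and GCLM, called members whose RefSeq promoter window holds this core. They were picked for the match, and the called member NFE2L2 has 2 windows without one. The 250 bases before the transcription start (GRCh38.p14) of 6 member genes, NFE2L2, KEAP1, GCLC, GCLM, TXN and TXNRD1, were searched on both strands, in 9 windows because NFE2L2, KEAP1 and TXNRD1 have 2 starts each. The core was found in 4 of these windows, those of both TXNRD1 starts, the GCLM start and 1 KEAP1 start, and in 3830 of 35116 windows of all genes (10.9%). The matches lie 99 to 91 bases before the first TXNRD1 start, 102 to 94 before the second and 34 to 26 before the GCLM start. The KEAP1 window holds 2 matches, at 54 to 46 and 31 to 23 bases before its start. No other motif was searched. Capitals mark the match, which reads TGACTTCGC in the first sequence and, on the opposite strand, TGACAAAGC in the second and TGACTAAGC in the third.
TXNRD1 first start, chr12:104215529-104215778, plus strand: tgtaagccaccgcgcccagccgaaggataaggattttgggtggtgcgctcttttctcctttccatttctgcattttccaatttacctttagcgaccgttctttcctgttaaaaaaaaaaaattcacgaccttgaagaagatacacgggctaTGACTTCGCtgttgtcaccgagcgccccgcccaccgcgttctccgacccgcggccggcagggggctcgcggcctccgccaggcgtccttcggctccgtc
TXNRD1 second start, chr12:104286782-104287031, plus strand: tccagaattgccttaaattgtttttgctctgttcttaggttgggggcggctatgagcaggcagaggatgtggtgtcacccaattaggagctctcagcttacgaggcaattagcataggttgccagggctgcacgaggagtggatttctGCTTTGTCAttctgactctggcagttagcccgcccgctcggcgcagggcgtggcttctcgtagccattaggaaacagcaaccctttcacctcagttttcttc
GCLM start, chr1:93909431-93909680, minus strand: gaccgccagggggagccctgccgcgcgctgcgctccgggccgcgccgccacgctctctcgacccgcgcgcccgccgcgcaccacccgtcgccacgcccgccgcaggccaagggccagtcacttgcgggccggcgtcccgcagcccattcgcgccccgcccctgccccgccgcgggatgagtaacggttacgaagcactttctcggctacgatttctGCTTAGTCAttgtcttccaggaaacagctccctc

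Values are linear probe set intensities in arbitrary units, and tests are limma on log2 intensity with values under 16 set to 16, with Benjamini-Hochberg adjustment over all 22215 probe sets and calls at an adjusted p under 0.05. The median intensity per array was 122.5 to 129.1 in shco4, 122.9 to 128.4 in shco2 and 124.7 to 129.6 in scramble. Pearson r between arrays across probe sets was 0.986 to 0.992 within a line and 0.960 to 0.980 between lines. The ratio of 3′ to 5′ signal of ACTB, a sign of RNA quality, was 1.12 to 1.14 in shco4, 1.08 to 1.11 in shco2 and 1.07 to 1.10 in scramble. No probe set used here carries the symbol DAND5, so the knockdown itself was not analysed here. The summed intensity of 6 markers that MDA-MB-231 cells are known to express was 35830 to 38930 in shco4, 27250 to 28450 in shco2 and 42290 to 43900 in scramble. VIM, the mesenchymal filament vimentin, read 9517 to 13130 on the 9 arrays, but others differed between lines: the receptor kinase AXL averaged 2176 in shco4, 8294 in shco2 and 9357 in scramble, and CAV1, caveolin 1, averaged 8953, 3670 and 9483, and the matrix protein TGFBI 2241, 363.7 and 1813, in the same order. The sum of 6 markers held to be low or absent in these cells was 1560 to 1810 in shco4, 1551 to 1705 in shco2 and 1995 to 2060 in scramble. Of these, PGR, the progesterone receptor, was under 16 on every array and ESR1, the estrogen receptor, read 23.2 to 54.1, while ERBB2 read 515 to 803.5, GATA3 436.9 to 683.3, EPCAM 219.9 to 609.9 and CDH1 28.0 to 243.5. The summed intensity of 9 luminal breast line markers, with PGR and FOXA1 under 16 throughout, was 17350 to 18690 in shco4, 10930 to 11380 in shco2 and 19790 to 22470 in scramble. That of 8 fibroblast markers, none of them under 16 on all arrays, was 660.1 to 934.4, 362.1 to 433 and 672.2 to 698 in the same order, and that of 4 blood cell markers 203.3 to 382, 130.3 to 174.4 and 131.7 to 199.2. The part of these markers in the results below was not tested.

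Across the 11 probe sets, 3 were called with shco4 against scramble (27.3%; 18.8% of all probe sets), 1 higher (9.05% of all) and 2 lower (9.75% of all). With shco2 against scramble 5 were called (45.5%; 20.7% of all), 2 higher (10.7% of all) and 3 lower (9.95% of all). The arrays did not overlap at 6 of the 11 with shco4 (32.6% of all) and at 6 with shco2 (35.8% of all). NFE2L2 rose, and TXNRD1 and GGT5 fell, with both hairpins, so 3 of 11 were called in the same direction with each (4.59% of all probe sets), in comparisons that share the scramble arrays. GCLM rose and HMOX1 fell with shco2. KEAP1, GCLC, GSR and TXN passed with neither hairpin. The median log2 difference of the 11 was 0.13 with shco4 and -0.13 with shco2, against 0 over all probe sets in both comparisons. In such bulk samples, fewer cells of a type and less RNA per cell cannot be told apart.

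**Figure D1:**
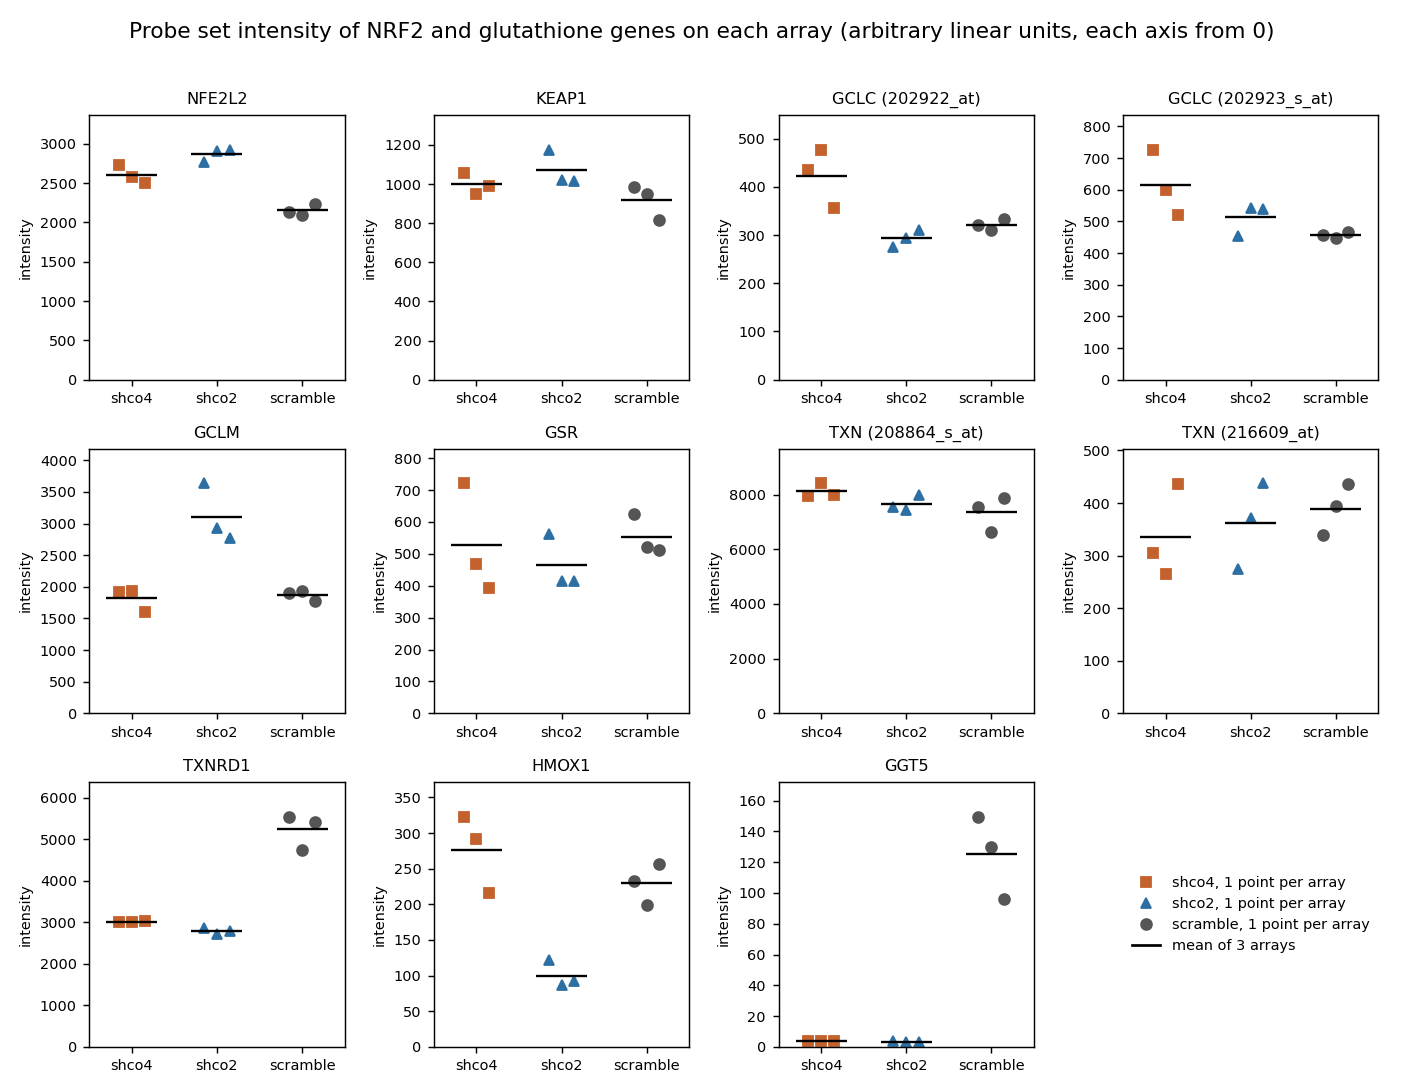
Intensity of the 11 member probe sets (vertical axis, arbitrary linear units from 0) in the shco4, shco2 and scramble lines (horizontal axis), with 1 point per array and a line at the mean of 3 arrays. TXNRD1 and GGT5 are lower in both hairpin lines than in scramble, GCLM is higher and HMOX1 lower in shco2 alone of the 3 lines, and GSR overlaps between all lines.

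NFE2L2, which encodes NRF2 itself, was moderately higher in both hairpin lines. Its intensity was 2727, 2572 and 2505 in shco4, 2769, 2904 and 2925 in shco2, and 2129, 2091 and 2233 in scramble. Every hairpin array lay above every scramble array, and the shco4 arrays all lay below the shco2 arrays. The rise was 0.27 ± 0.04 on the log2 scale with shco4 (SE, n = 3; 1.21-fold; adjusted p = 0.00631) and 0.41 ± 0.04 with shco2 (1.33-fold; adjusted p = 0.00138), by limma. Both calls were kept with each of the 9 arrays left out in turn, but the shco4 call ended with a floor of 1 in place of 16 (adjusted p = 0.0797). The SE depended on the processing. With shco2 it was 0.0197 with median centring and 0.078 with floored probe sets left out of the fit. It was 0.084 among probe sets with a mean intensity of at least 100, and 0.0875 with a floor of 1.

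KEAP1, the adaptor that targets NRF2 for degradation, read 1057, 951 and 991 in shco4, 1176, 1019 and 1015 in shco2, and 983, 949.9 and 814 in scramble. The shco4 arrays overlap those of scramble, and the shco2 arrays all lie above them. The log2 difference was 0.13 with shco4 (95% interval -0.09 to 0.35; adjusted p = 0.436) and 0.23 with shco2 (0.0037 to 0.45; adjusted p = 0.153), and neither passed limma's adjusted threshold.

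The 2 subunits of glutamate-cysteine ligase, which makes the first and rate-limiting step of glutathione synthesis, gave different results: GCLM passed with shco2, and GCLC with neither hairpin. GCLM, the modifier subunit, read 1922, 1934 and 1596 in shco4, 3638, 2921 and 2771 in shco2, and 1899, 1934 and 1776 in scramble. All shco2 arrays stood above all others, while shco4 and scramble overlapped. With shco2, GCLM rose 1.65-fold, a log2 difference of 0.72 ± 0.12 (SE, n = 3; limma adjusted p = 0.00803), a call kept with each array left out in turn. With shco4 its difference was -0.05 (95% interval -0.34 to 0.25; adjusted p = 0.945), and without shco4 replicate 3 it was 0.05.

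GCLC, the catalytic subunit, is read by 2 probe sets. At 202922_at it read 435, 477 and 356 in shco4, 275, 295 and 311 in shco2, and 320.3, 309.7 and 334 in scramble. At 202923_s_at it read 727, 600.03 and 522 in shco4, 455, 544 and 539.98 in shco2, and 456, 449 and 467 in scramble. Both probe sets had every shco4 array above every scramble array, and both had shco2 arrays that overlap scramble.

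The differences of GCLC with shco4 were 0.39 ± 0.11 and 0.42 ± 0.13 on the log2 scale (SE, n = 3; 1.31-fold and 1.335-fold), and they fell just short of the threshold (limma adjusted p = 0.0543 and 0.0697). Both passed with quantile normalization (0.034 and 0.0453), with median centring (0.0323 and 0.0345), among probe sets with a mean intensity of at least 100 (0.0279 and 0.0303), with a trended robust prior (0.0489 and 0.0424), and without shco4 replicate 3, the lowest shco4 array (0.00919 and 0.0322). With shco2 the probe sets differed in sign, at -0.13 and 0.16, and neither passed (adjusted p = 0.505 and 0.488).

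GSR, the reductase that regenerates reduced glutathione with NADPH, varied more within lines than between them. It read 722, 469 and 391 in shco4, 564, 414 and 414 in shco2, and 624, 521 and 512 in scramble. In each line the array numbered 1 was the highest, and the lines overlapped. The log2 difference was -0.11 with shco4 (95% interval -0.70 to 0.48; adjusted p = 0.902) and -0.26 with shco2 (-0.85 to 0.33; adjusted p = 0.576), by limma. The shco4 value was 0.08 without shco4 replicate 3.

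The thioredoxin arm, which reduces protein disulfides alongside glutathione, differed at its reductase. TXNRD1, the cytosolic selenoenzyme that reduces thioredoxin with NADPH, read 2998, 3015 and 3019 in shco4, 2852, 2721 and 2792 in shco2, and 5539.8, 4749 and 5416 in scramble. The arrays of each hairpin line lay close together and well under all 3 scramble arrays, of which replicate 2 was the lowest. TXNRD1 fell by 0.79 ± 0.06 on the log2 scale with shco4 (SE, n = 3; limma adjusted p = 0.00059) and by 0.91 ± 0.06 with shco2 (adjusted p = 0.000331), to 57.6% and 53.4% of the scramble level. Leaving out any single array kept both calls, as did every other setting tried. The SE with shco2 was larger with floored probe sets left out of the fit (0.085) and with a floor of 1 (0.095).

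TXN, thioredoxin 1, the substrate of that reductase, did not pass at either of its probe sets. At 208864_s_at it read 7949, 8421 and 7994 in shco4, 7554, 7453 and 7997 in shco2, and 7532, 6628 and 7889 in scramble. All 3 shco4 arrays lay above the scramble arrays there, and shco2 overlapped scramble. The log2 difference at that probe set was 0.15 with shco4 (95% interval -0.01 to 0.31; limma adjusted p = 0.199) and 0.06 with shco2 (-0.10 to 0.23; adjusted p = 0.629). At 216609_at it read 305, 265 and 436 in shco4, 275, 372 and 438 in shco2, and 338, 394 and 436 in scramble, with the array numbered 3 highest in each line and all lines overlapping. There the difference was -0.24 with shco4 (-0.82 to 0.34) and -0.13 with shco2 (-0.71 to 0.45), and neither passed (adjusted p = 0.598 and 0.876).

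HMOX1, heme oxygenase 1, which breaks down heme and is a strongly inducible NRF2 target, was low in the shco2 line. It read 323, 291 and 216 in shco4, 121, 86.1 and 92.1 in shco2, and 233, 199 and 257 in scramble. All 3 shco2 arrays were the lowest of the 9, and shco4 overlapped scramble. With shco2, HMOX1 fell to 43.2% of scramble, a log2 difference of -1.21 ± 0.20 (SE, n = 3; limma adjusted p = 0.00731), and its difference with shco4 was 0.26 (95% interval -0.22 to 0.73; adjusted p = 0.479). The shco2 call was kept with each array left out in turn.

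GGT5, the gamma-glutamyltransferase that cleaves glutathione and converts leukotriene C4, was detected above the floor of 16 in the scramble line alone. It read 3.83, 3.75 and 3.97 in shco4, 3.91, 2.91 and 3.40 in shco2, and 149.5, 129.6 and 96.0 in scramble. All 6 hairpin arrays lay under the floor, where values have no order. The mean of these arrays was thus at least 7.69-fold lower in each hairpin line (limma adjusted p = 0.000248 with shco4 and 0.00018 with shco2). This bound comes from the floor and leaves out the spread of scramble. With single arrays left out, the log2 difference was -3.12 to -2.80. The floor also gave both hairpin lines a log2 SD of 0, against 0.33 in scramble, which lowers the spread that these p-values rest on. With a floor of 64 the bound was 1.92-fold (adjusted p = 0.00873 and 0.00755). Each call was kept with every array left out in turn. The probe set is dim, with a mean over the 9 arrays under 100. For GGT5, TXNRD1 and NFE2L2, an effect of both hairpins and a trait of the scramble line itself cannot be told apart, since the same 3 scramble arrays serve both comparisons.

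**Figure D2:**
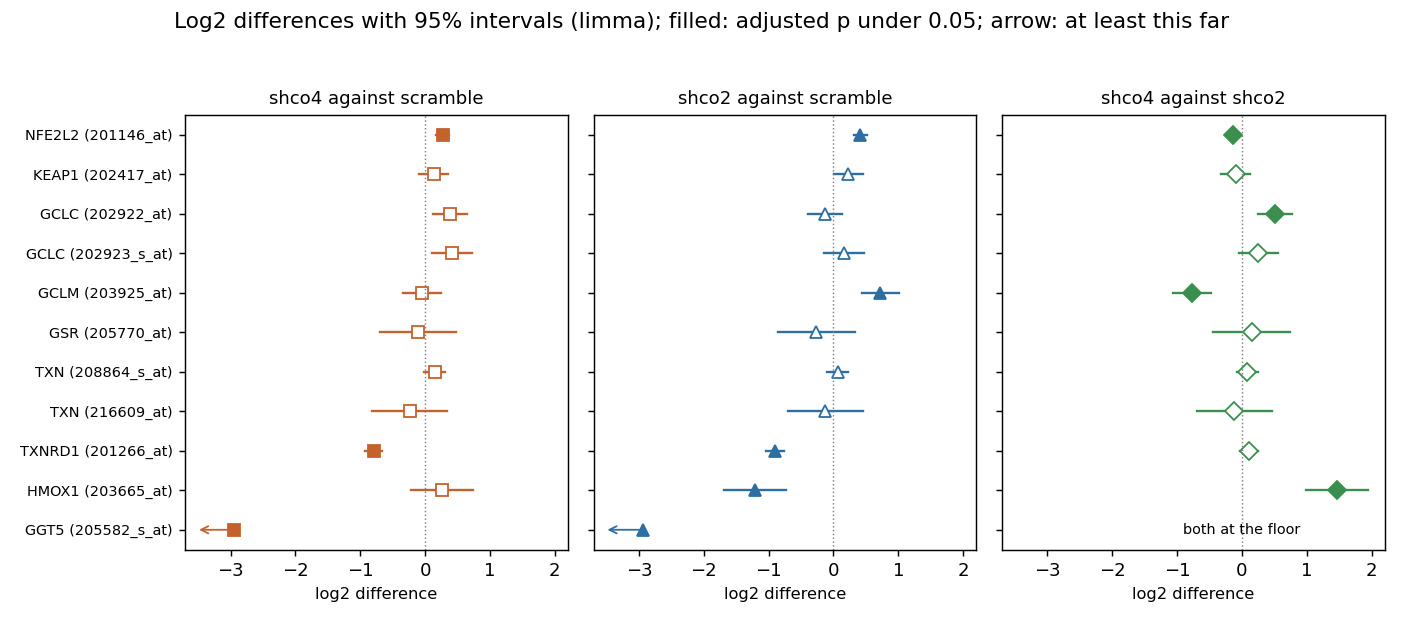
Log2 difference (horizontal axis) of each member probe set (vertical axis) for shco4 against scramble, shco2 against scramble and shco4 against shco2, with 95% intervals from limma. Filled symbols passed an adjusted p under 0.05, and the arrows mark GGT5 as at least 7.69-fold below the mean of the scramble arrays. TXNRD1 lies left of 0 with both hairpins, while GCLM and HMOX1 lie off 0 with shco2 and between the hairpins.

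Set directly against each other, the hairpin lines differed at 4 of the 11 probe sets (36.4%; 31.0% of all probe sets), with 2 higher (14.9% of all) and 2 lower (16.1% of all) in shco4, and their arrays did not overlap at 5 (40.9% of all). HMOX1 was 2.77-fold higher in shco4, a log2 difference of 1.47 ± 0.20 (SE, n = 3; limma adjusted p = 0.00199), and no shco4 array overlapped shco2. GCLM was lower in shco4, with a difference of -0.77 ± 0.12 (adjusted p = 0.00376). GCLC was higher in shco4 at 202922_at by 0.52 ± 0.11 (adjusted p = 0.0119), while at 202923_s_at the difference was 0.26 and did not pass (adjusted p = 0.201). These 3 calls were kept with each array left out in turn.

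NFE2L2 was also called between the hairpins, with a difference of -0.14 ± 0.04 on the log2 scale (SE, n = 3; limma adjusted p = 0.0434). Leaving out an array ended the call for scramble replicates 1 (0.0696) and 2 (0.0566), shco2 replicates 2 (0.123) and 3 (0.127), and shco4 replicates 2 (0.116) and 3 (0.119). It also ended in 7 other settings, among them a floor of 1 (0.288), quantile normalization (0.0768) and the replicate number as a block (0.0958). TXNRD1 differed by 0.11 (95% interval -0.03 to 0.25; adjusted p = 0.213), with every shco4 array above every shco2 array, and it passed without scramble replicate 2 (adjusted p = 0.0112) and with scramble left out of the fit (0.0199). KEAP1, GSR and both TXN probe sets differed by -0.11 to 0.15 and did not pass. GGT5 was under the floor in both lines, so no difference is given.

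With the hairpin lines averaged against scramble, the same 3 genes passed, NFE2L2 (0.34 ± 0.04; adjusted p = 0.00279), TXNRD1 (-0.85 ± 0.05; adjusted p = 0.000591) and GGT5, which is 27.3% of the 11 member probe sets against 14.1% of all by limma, with 1 higher (6.73% of all) and 2 lower (7.39% of all). The averaged difference of HMOX1 was -0.48 and that of GCLM 0.34, and neither passed (adjusted p = 0.128 and 0.0861).

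Other NRF2 target genes did not move as a block in either line, though more fell than rose with shco2. Of 30 listed genes, 26 were measured by a probe set with 1 symbol, and with shco4 4 rose, 3 fell and 19 did not pass, with a median log2 difference of 0.08. With shco2 2 rose, 7 fell and 17 did not pass, with a median of -0.11. Over all genes, taken at the probe set with the highest mean, 22.2% were called with shco4 and 24.3% with shco2, with a median of 0 in both. By direction, 10.7% rose and 11.5% fell with shco4, and 13.3% rose and 11.0% fell with shco2. By limma, UGDH, which makes UDP-glucuronate, fell with shco4, with a log2 difference of -2.07 ± 0.10 (SE, n = 3; adjusted p = 0.000248), and SQSTM1, the autophagy receptor p62 that binds KEAP1, rose by 1.02 ± 0.15 (adjusted p = 0.00576). The aldo-keto reductase AKR1C2 fell with both, with differences of -1.20 for shco4 and -1.44 for shco2, AKR1C3 fell with shco2 (-0.83), and these paralogs are so alike in sequence that their probe sets may share signal. PIR, the iron-binding pirin, rose with both, by 0.99 and 0.78, and the hydrolase ABHD4 fell with shco2 (-1.0). The calls of these named genes were kept with each array left out in turn. The counts were less steady: the number that rose with shco4 was 2 without scramble replicate 2 or 3, the number that rose with shco2 was 1 without scramble replicate 2, any shco2 array, or shco4 replicate 2 or 3, and the number that fell with shco2 was 4 without shco2 replicate 3. Calls over all probe sets also fell in these fits. With shco4 they went from 4178 to 2760 and 3225 without scramble replicates 2 and 3. With shco2 they went from 4589 to 3258 without shco2 replicate 3.

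Other glutathione metabolism genes were more often lower than higher with shco4. Of 36 listed, 32 were measured, and with shco4 10 fell, 3 rose and 19 did not pass (median -0.12), while with shco2 3 fell, 4 rose and 25 did not pass (median 0.01). Some of the falls with shco4 are of glutathione transferase paralogs, whose probe sets may share signal, as for the aldo-keto reductases. Over all genes 11.5% fell and 10.7% rose with shco4, and 11.0% fell and 13.3% rose with shco2. GGCT, gamma-glutamylcyclotransferase, which acts on the gamma-glutamyl peptides released from glutathione, fell with shco4, with a log2 difference of -0.55 ± 0.04 (SE, n = 3; limma adjusted p = 0.000632), and rose with shco2 by 0.93 ± 0.04 (adjusted p = 0.000161). Between the hairpins its difference was -1.47 (adjusted p = 2.29e-05). The glutathione transferase GSTK1 fell with shco4 (-1.16), and so did HAGH, the glyoxalase that releases glutathione from lactoylglutathione (-0.84), while the S-formylglutathione hydrolase ESD rose by 0.74. With shco2, GLO1, the first glyoxalase, fell (-0.58), as did the microsomal transferase MGST3 (-0.60) and again GSTK1 (-0.64), and GSTZ1 rose by 0.50. These calls were kept with each array left out in turn. Of the 10 falls of the list with shco4, 6 held in every fit that dropped an array. Across those fits, 7 to 11 genes fell and 3 to 4 rose with shco4. Without scramble replicate 1, 2 genes of the list rose with shco2. Over all probe sets the calls with shco4 were 2760 to 3938 in those fits, against 4178 with all arrays. With shco2 they were 3450 without scramble replicate 1, against 4589. Between the hairpins, 6 genes of this list were higher and 13 lower in shco4 (median -0.28). Among the NRF2 targets 9 were higher and 2 lower (median 0.19). Over all genes 35.4% were called in either direction, and over all probe sets 14.9% were higher and 16.1% lower. With single arrays left out, 5 to 6 genes of this list were higher and 10 to 14 lower. For the NRF2 targets the counts were then 8 to 11 higher and 2 to 3 lower. Over all probe sets the calls between the hairpins were then 5715 to 6691, against 6881 with all arrays.

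**Figure D3:**
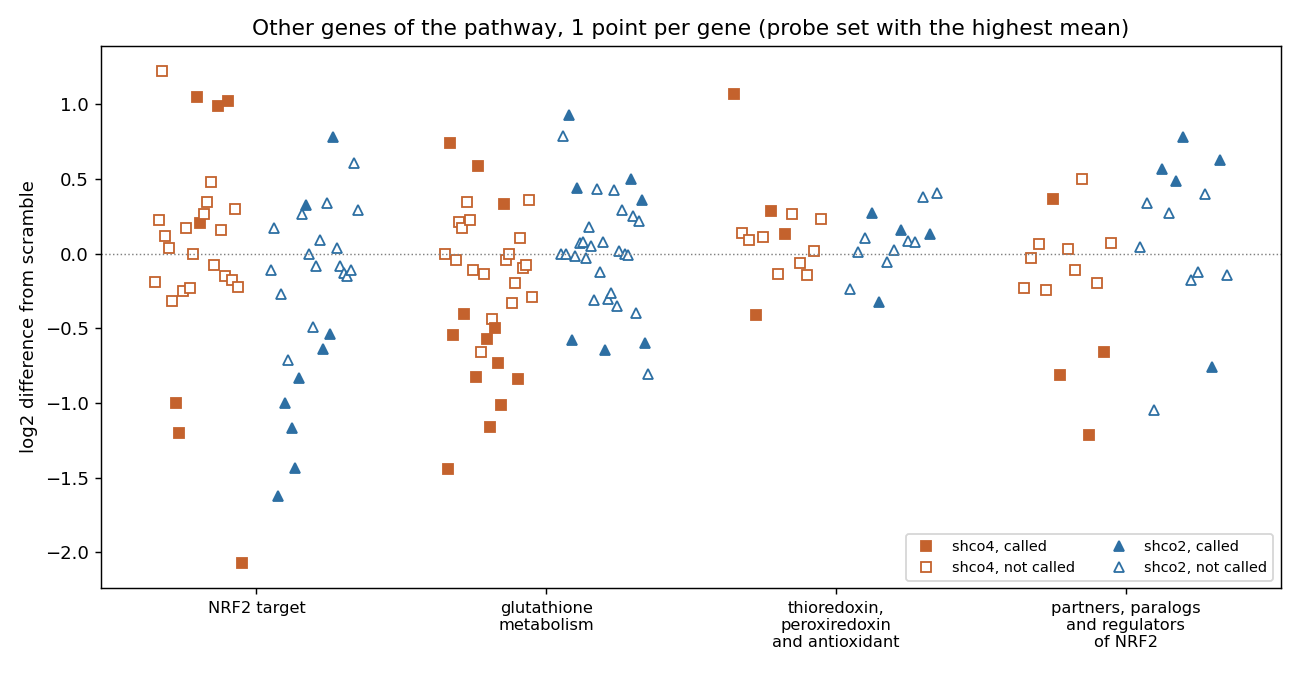
Log2 difference from scramble (vertical axis) of the other listed genes in 4 groups (horizontal axis), with squares for shco4 and triangles for shco2, 1 point per gene, and filled symbols for an adjusted p under 0.05. Among NRF2 targets the lowest shco4 point is UGDH at -2.07, and filled points lie on both sides of 0 in each group.

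Among 13 measured thioredoxin, peroxiredoxin and antioxidant genes of 16 listed, 3 rose and 1 fell with shco4 (median 0.11; over all genes 10.7% rose and 11.5% fell). With shco2 3 rose and 1 fell (median 0.08; over all genes 13.3% rose and 11.0% fell). Catalase, CAT, which breaks down hydrogen peroxide, rose with shco4 by 1.07 ± 0.16 on the log2 scale (SE, n = 3; limma adjusted p = 0.00616). The peroxiredoxin PRDX2 fell with shco4 (-0.41) and rose with shco2 by 0.27, and its difference between the hairpins was -0.68 (adjusted p = 0.000274). PRDX4, the peroxiredoxin of the endoplasmic reticulum, rose with shco4 by 0.29. The third rise, that of the superoxide dismutase SOD1, was 0.13 (adjusted p = 0.0434) and was kept with 1 of the 9 arrays left out. The calls of CAT, PRDX2 and PRDX4 with shco4 were kept with each array left out in turn, though that of PRDX4 ended with a floor of 1. The PRDX2 rise with shco2 ended without shco2 replicate 1 (adjusted p = 0.0527) and with a floor of 1, and none of the 4 shco2 calls of the list, PRDX2, TXNL1, SOD1 and PRDX3, was kept in all of the fits with 1 array left out.

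Among the partners, paralogs and regulators of NRF2, 13 of 14 genes were measured, and with shco4 1 rose and 3 fell (median -0.11; over all genes 10.7% and 11.5%), while with shco2 4 rose and 1 fell (median 0.27; over all genes 13.3% and 11.0%). NFE2L1, the NRF2 paralog that controls proteasome genes, fell with shco4, with a log2 difference of -1.21 ± 0.11 (SE, n = 3; limma adjusted p = 0.00125). DPP3 and PALB2, which bind KEAP1 through the motif that NRF2 uses, fell with shco4 (-0.81 and -0.66). With shco2, PALB2 rose by 0.63, the kinase GSK3B, which marks NRF2 for degradation apart from KEAP1, by 0.78, and BTRC, the ubiquitin ligase adaptor that reads that mark, by 0.57, while the paralog NFE2L3 fell (-0.76). Between the hairpins the difference of PALB2 was -1.29 and that of NFE2L1 -1.61 (adjusted p = 0.000198 and 0.000178). These calls were kept with each array left out in turn. DPP3 also rose with shco2, by 0.49 (limma adjusted p = 0.0148), but that call ended without shco2 replicate 1 or 2. The single rise with shco4, CUL3, the ubiquitin ligase scaffold that carries KEAP1, had a difference of 0.36 (adjusted p = 0.0278) and lost its call when scramble replicate 1 or 3, shco2 replicate 3 or any single shco4 array was left out, with a highest adjusted p of 0.0817.

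The genes whose pattern over the 9 arrays was most like that of a member were found by Pearson r on log2 intensity, as a description of these arrays, which share 3 lines. GGT5 was closest to CEMIP, a hyaluronan-degrading protein (r = 0.994), and to the kinase JAK1 (r = 0.989) and C4BPB (r = 0.983), whose log2 differences from scramble were -3.37, -1.67 and -1.34 with shco4 and -3.385, -1.66 and -1.61 with shco2. GGT5 was set to the floor on every hairpin array, so its r rests on the step from scramble and on the scramble values alone. TXNRD1 was closest to the histone deacetylase HDAC3 (r = 0.991), ARNT2 (r = 0.986) and CEMIP (r = 0.984). HMOX1 was closest to UBE2H, HYAL2 and FN1 (r = 0.988, 0.982 and 0.981), and FN1, fibronectin, differed from scramble by 0.32 with shco4 and -1.64 with shco2. GCLM was closest to SARS2, FDX1 and CREB3 (r = 0.982, 0.981 and 0.979), and NFE2L2 to DUS4L, ODR4 and UNC119B (r = 0.995, 0.985 and 0.982). GCLC, at 202923_s_at, was closest to TNRC6B, HOOK2 and RCOR3 (r = 0.968, 0.941 and 0.939). None of these neighbours is a member.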

How the data were processed

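Total RNA (200 ng per sample) had been labelled as biotin-cRNA with a 3′ IVT kit and hybridized to 9 Affymetrix arrays, 3 per group, per the labels' protocols. The deposited table holds 22277 probe sets as linear intensity, scaled by the authors to a 2% trimmed mean of 500.11 to 500.14 on each array, as computed from the values. The summary software was not given in the sources used here. Each column was matched to a labelled group and replicate, and 0 were left unmapped.

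The 62 control probe sets were left out. Values under 16 were set to 16, since 11.8% of probe sets lay there on all arrays, and log2 was taken. All 9 arrays entered a single model with 3 group means (lmFit and eBayes, limma 3.58.1, R 4.3.3; prior degrees of freedom 0.53), without a filter, and checked on simulated data. Floored probe sets thus entered the shared prior on the spread. With them left out, the SE with shco2 was larger for NFE2L2 (0.078 against 0.0415), TXNRD1 (0.085 against 0.057) and KEAP1 (0.108 against 0.0925). It was smaller for GSR (0.231 against 0.246) and HMOX1 (0.191 against 0.198). Gene symbols came from the platform annotation: 19064 probe sets had 1, 1043 several and 2108 none, and no member has a probe set with several. Levels of different probe sets were not compared, apart from the marker sums, in which bright probe sets weigh most. Precision is limited by having 3 arrays in each group.

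The members and the 4 gene lists were chosen with earlier results of these data known. Named genes are all members and, from each list, up to 4 genes with the smallest p in each hairpin's comparison with scramble, together with the 3 nearest patterns of each called member gene. List genes are read at their probe set with the highest mean. Promoter sequences are RefSeq's for GRCh38.p14.

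Arrays with the same replicate number deviated together from their group means, with r = 0.133 to 0.235 between shco4 and scramble, 0.0571 to 0.29 between shco2 and scramble, and 0.0576 to 0.213 between the hairpins. Only shco4 with scramble met a limit of 0.1 at every replicate number. The other pairs of lines fell under it at replicate 2 (0.0571 and 0.0576). In each pair of lines, however, all 3 arrays had their best match at the same number. The pairing comes from this correlation, not from the labels. Alternatives were other floors, quantile normalization, median centring, a filter on dim probe sets, other variance priors, a replicate block, only the groups compared, and each array left out in turn. Effects on the list genes were added after the data were seen.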

Additional observations from a re-analysis of the deposited data

Results flagged for a closer look

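The effects of the hairpins, each against the shared scramble arrays, differed by the direct test of shco4 against shco2 (limma) at 4 member probe sets. That is 36.4% of the member probe sets, near the 31.0% of all probe sets called in this comparison. HMOX1 differed between the hairpins by 1.47 on the log2 scale (adjusted p = 0.00199), with 0.26 for shco4 and -1.21 for shco2 against scramble. GCLM differed by -0.77 (adjusted p = 0.00376), with -0.05 and 0.72 in that order. GCLC differed at 202922_at by 0.52 (adjusted p = 0.0119), with 0.39 and -0.13. NFE2L2 differed by -0.14 (adjusted p = 0.0434), with 0.27 and 0.41, and this call is the least steady of the 4. With 3 arrays per group, single arrays that stand apart were not tested.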

How the results depend on the processing

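With 9 member genes at 11 probe sets in 4 comparisons, 722 single values under an alternative kept their direction and their side of the threshold, 16 passed that had not, 14 no longer passed, and 8 changed sign. The count called with shco4 against scramble, 3, was 5 with quantile normalization, median centring and the trended robust prior, and 3 to 5 with single arrays left out, since both GCLC probe sets then passed. Over all probe sets the calls with shco4 were 4178 in the fit used above. They were 4256 with quantile normalization, 4044 with median centring and 4910 with the trended robust prior. The counts with shco2 (5), with the hairpins averaged (3) and between the hairpins (4) stayed within 1.5 times, at 5, 3 and 3 to 4 with single arrays left out. Values that changed sign did not pass in any setting: TXN at 208864_s_at was -0.11 between the hairpins with quantile normalization and ranged from -0.0082 to 0.12 with shco2 with single arrays left out, TXN at 216609_at ranged from -0.28 to 0.058 with shco2 and from -0.32 to 0.039 between the hairpins, GCLM from -0.093 to 0.046 with shco4, and GSR from -0.36 to 0.080 with shco4 and from -0.10 to 0.34 between the hairpins. The cause was not tested. The replicate block ended the NFE2L2 call between the hairpins (adjusted p = 0.0958), let GCLM pass in the average of both hairpins (0.0435), and changed no other call of a member probe set. With the block, 6 glutathione metabolism genes fell with shco2, against 3 without. Over all 22215 probe sets, the calls in either direction with shco2 also grew with the block, from 4589 to 5345. GCLM also passed in that average with a filter at a mean of 100 (0.0399) and the trended robust prior (0.038), and HMOX1 with the filter (0.0432). Signal near the floor limits GGT5 to a bound.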
